A study of Mus musculus with 6 samples.

Results

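Messenger RNA of 36 genes of NF-kB signalling and the cytokine response was followed in endothelial cells, the lining cells of blood and lymph vessels, that were sorted out of the lungs of mice. The set was drawn up by function, with earlier results of these data known. It holds the NF-kB subunits, IkB proteins and other inhibitors, TRAF and cIAP adaptors, receptors, cytokines and response genes. All 36 were found among the 23793 rows of the table, each in 1 row under its own symbol. There were 3 control and 3 mutant libraries at postnatal day 7, on a mixed strain background, with replicates A, B and C in each group. The sample names carry Vegfa and Shh for both groups, the series title places Vegfa in the epithelium, and the alleles of either group, the driver of any recombination and the number of animals per library are not spelled out in the labels. Levels are in FPKM, fragments scaled by transcript length and by sequencing depth, a scale on which genes can be compared per length.

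NF-kB is a family of paired transcription factors that rest in the cytoplasm bound to IkB proteins. Signals from TNF, interleukin 1 or Toll-like receptors pass through TRAF and cIAP adaptors to a kinase that marks IkB for destruction, after which the freed subunits enter the nucleus. Many of the genes that NF-kB switches on, such as Nfkbia and Tnfaip3, encode its own inhibitors, so that the response limits itself. In endothelium the pathway is known for inducing adhesion molecules, chemokines and cytokines such as Il6, whose receptor subunit Il6st signals through STAT3 and induces the brake Socs3.

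The DNA site that NF-kB binds is a run of about the same form in many of these genes, and the stretches that hold it are shown for 6 of them because their levels are described below. Promoters of RefSeq on GRCm38.p6 (the mm10 build), from 250 bases before to 50 bases after the gene's start, were matched by symbol for 29 of the 36 genes; the others were Relb, Nfkb1, Nfkbiz, Cd40, Tlr4, Csf3 and Il15. The search used the NF-kB consensus of 10 bases on both strands. Capitals mark the match or overlapping matches, and each stretch runs 5′ to 3′ on the strand of the gene and ends at or before its start.
Il6, chr5:30013025-30013113, plus strand: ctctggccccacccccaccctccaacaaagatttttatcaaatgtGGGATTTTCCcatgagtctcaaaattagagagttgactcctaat
Csf1, chr3:107760569-107760668, minus strand: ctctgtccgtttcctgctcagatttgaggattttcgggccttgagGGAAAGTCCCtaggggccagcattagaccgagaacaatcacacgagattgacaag
Tnfaip3, chr10:19015411-19015467, minus strand: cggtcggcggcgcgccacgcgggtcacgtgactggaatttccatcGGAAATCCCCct
Nfkbia, chr12:55492648-55492721, minus strand: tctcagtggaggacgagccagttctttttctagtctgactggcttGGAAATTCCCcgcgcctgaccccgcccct
Tnip1, chr11:54962942-54963043, minus strand: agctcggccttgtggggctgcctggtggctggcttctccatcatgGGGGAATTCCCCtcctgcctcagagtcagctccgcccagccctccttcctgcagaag
Nfkb2, chr19:46304653-46304736, plus strand: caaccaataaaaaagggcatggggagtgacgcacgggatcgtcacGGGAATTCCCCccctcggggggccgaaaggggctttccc

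The matches in capitals lay 44 to 35 bases before the start in Il6, 154 to 145 in Csf1, 12 to 3 in Tnfaip3, 29 to 20 in Nfkbia, 58 to 47 in Tnip1 and 39 to 29 in Nfkb2. The Nfkb2 stretch also ends in a second match, GGGGCTTTCC, from 11 to 2 bases before the start, left in lower case. Further matches lay 125 to 116 bases before the start in Tnfaip3, outside the stretch shown, and in 2 other promoters of Nfkb2. The starts used for Nfkb2, Tnip1 and Tlr2 lie inside the span listed for the gene, after its first base. So does the one behind the upstream match of Il1r1. In all, 12 of the 29 genes held a match in at least 1 promoter (Rel, Nfkb2, Nfkbia, Nfkbie, Bcl3, Tnfaip3, Tnip1, Tlr2, Il1r1, Il6, Csf1 and Irf1), against 5.14% of the 27025 genes with a promoter in the RefSeq table. Another run, GGGNNNTTCC, also on both strands and overlapping the first in part, was found in 11 of the 29 and in 6.31% of all genes. The list was drawn up from genes known as NF-kB targets and regulators, so these shares describe how it was made.

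The libraries carried the markers of endothelium at high levels: Pecam1 stood between 728 and 928 FPKM and Cdh5, the cadherin of endothelial junctions, between 1050 and 1310 FPKM. The total of sequenced fragments is not given, and the spacing of the lowest values gave depths of 0.897 to 1.49 relative to control A. Markers of other cells were present at uneven levels, which apart from Eln were lower than those of Pecam1 and Cdh5. Eln, from the mesenchymal list, reached 2789 FPKM in control B, 2291 in control C, 1367 in mutant B and 1583 in mutant C. In these libraries Eln was above Pecam1 and Cdh5, while in control A (891 FPKM) and mutant A (591 FPKM) it was below both. The 12 endothelial markers summed to 7005 to 7861 FPKM over the controls and 5898 to 6518 FPKM over the mutants. The summed FPKM of 15 leukocyte markers was 10.9 to 62 in controls and 6.93 to 53.8 in mutants, that of 14 mesenchymal markers 1378 to 4258 and 935 to 2734, that of 14 epithelial markers 139 to 295 and 65.3 to 160, and that of 15 early response and stress genes of freshly dissociated cells 1903 to 4341 and 2614 to 3651. Control B was the highest library for leukocyte, mesenchymal, epithelial and early response sums. Among the endothelial markers the tight junction gene Cldn5 had the lowest p, at 2430, 2042 and 2099 FPKM in controls and 1159, 1250 and 798 FPKM in mutants, followed by Kdr, Eng and Erg. The lowest p of the other lists were those of Hopx, Sftpc, Sftpb and Sftpa1 (epithelial), Pdgfrb, Postn, Pdgfra and Cspg4 (mesenchymal), Coro1a, Lyz2, Fcer1g and Cd68 (leukocyte) and Fosb, Dusp1, Zfp36 and Jund (early response and stress), and none of these markers passed at an adjusted p under 0.05. In sorted bulk samples fewer cells of a type and less RNA per cell cannot be told apart.

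Mean levels in the mutant exceeded those in the control for most of the 36 genes, none reached the threshold of an adjusted p under 0.05, and the size of the difference depended on the mutant library. The FPKM mean was higher in the mutant for 27 of 36. Of these 36, 31 had a mean of at least 1 FPKM over all libraries and were tested with limma on the log2(FPKM + 1) scale, with adjustment over all 11693 tested rows of the table; Traf1, Il1rl1, Tnf, Lif and Csf3 were below it. Il6 and Il33 had control means under 1 FPKM and entered through the mutant libraries. The median log2 fold change of the 31 was 0.32, beside 0.02 over all tested rows, and it was 0.17 without mutant C. Of the 31, 24 were higher (54.6% of all tested rows were). None of the 31 passed, where 0% of all tested rows passed as higher and 0.137% as lower; the lowest adjusted p was 0.298.

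At an unadjusted p under 0.05, 8 of the 31 were higher (Relb, Nfkbia, Nfkbiz, Tnfaip3, Birc3, Il6, Csf1 and Tnfaip2), or 25.8%, against 3.81% of all tested rows. None was lower at that threshold, against 4.29%. Il6, which entered through the mutant libraries, is in this count and in those that follow. With the filter at a mean of 0.1 FPKM, which the Il6 controls also exceed, 8 of 34 were higher, against 3.39% of all tested rows. With the replicate letter as a block the count was 10 higher (5.39% of all tested rows) and 0 lower (6.88%), with Rel, Bcl3 and Tnip1 added and Nfkbia lost. In 10 of the 31 the mutant libraries all lay above the controls (Rel, Nfkb2, Nfkbie, Nfkbiz, Tnfaip3, Tnip2, Birc3, Il6, Csf1 and Tnfaip2), against 7.12% of all tested rows, and in 1, Cd40, they all lay below, against 6.57%. Without control C 5 genes were higher at that p, against 2.27% of all tested rows. Without mutant C 5 were higher, against 2.22%, and 1, Rela, was lower, against 3.24%. Without mutant B 17 genes lay above all controls, against 13.3% of all tested rows, a share that is larger with fewer libraries to compare.

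**Figure D1:**
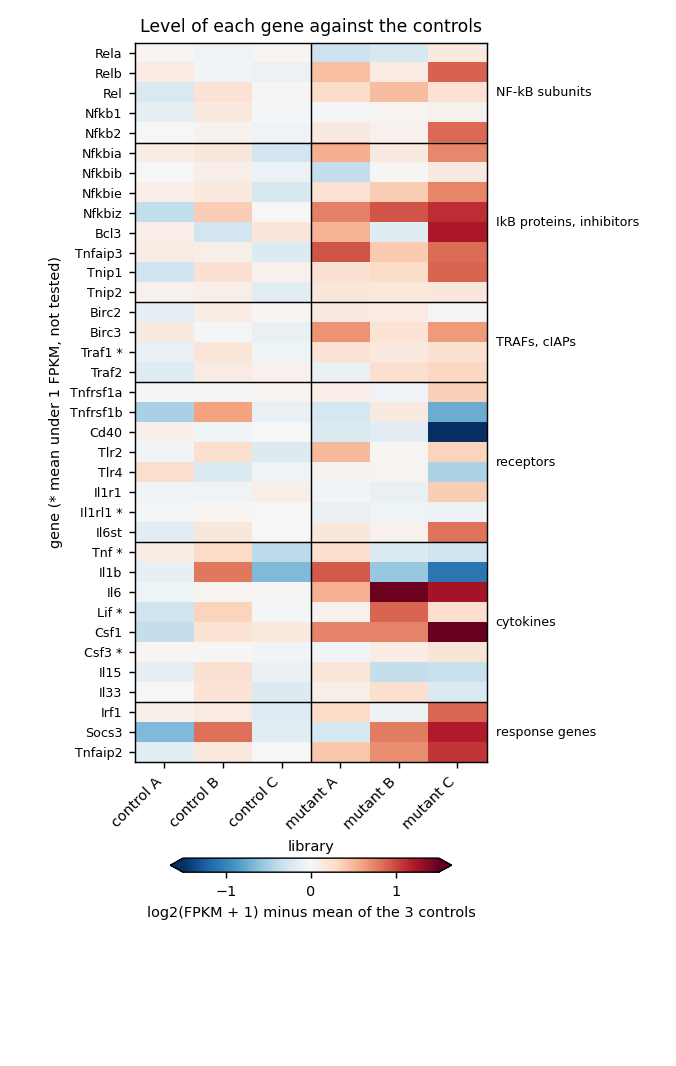
Each row is one of the 36 genes, ordered by role, and each column a library; colour is log2(FPKM + 1) minus the mean of the 3 controls, with red above and blue below. The reddest column is mutant C, and the rows of Nfkbiz, Tnfaip3, Il6, Csf1 and Tnfaip2 are red in all 3 mutant libraries.

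Among the 5 NF-kB subunits the 2 most abundant had similar means in both groups, and the others had higher means in the mutant. Rela, the subunit with the main activation domain, was at 59, 55.8 and 59.4 FPKM in the controls (given as A, B, C here and throughout) and 46.7, 49.1 and 64.4 FPKM in the mutants. Mutant A and mutant B were thus below the controls and mutant C above them, and the log2 fold change was -0.13 ± 0.14 (SE; limma adjusted p = 0.845), or -0.27 without mutant C and -0.044 without mutant A. Nfkb1, the precursor of p50, the usual partner of Rela, was at 41.9, 51.5 and 45.8 FPKM in controls and 45.2, 47.8 and 48.5 FPKM in mutants. Its log2 fold change of 0.03 ± 0.10 (adjusted p = 0.961) was within the spread of the controls and changed sign in 3 of the alternatives, with a value of -0.041 without control A.

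Relb, a subunit of the slower non-canonical branch, was at 13.3, 11.8 and 11.4 FPKM in controls and 17, 13.3 and 23.3 FPKM in mutants. Mutant B lay inside the control range, and the log2 fold change was 0.49 ± 0.19 (unadjusted p = 0.0416, adjusted p = 0.613 in limma). It was 0.29 without mutant C, and its unadjusted p was under 0.05 in 1 of the 6 fits that left out a library. Nfkb2, the precursor that pairs with Relb, was at 16.5, 17.1 and 16 FPKM in controls and 18.3, 17.4 and 30.6 FPKM in mutants. Its groups did not overlap, but mutants A and B were close to the controls and mutant C set the log2 fold change of 0.35 ± 0.21, which was 0.10 without it (adjusted p = 0.719 with all libraries). Rel, which encodes c-Rel, was the least abundant subunit, at 3.36, 4.94 and 4.16 FPKM in controls and 5.19, 6.06 and 4.96 FPKM in mutants. The 3 mutant libraries were above the controls by a small margin, with mutant B highest (0.32 ± 0.15, adjusted p = 0.655, and 0.21 without control A).

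The IkB proteins and other inhibitors of NF-kB were higher in mean in 7 of 8, against 54.6% of all tested rows. Their median log2 fold change was 0.46. Of the 8, 3 were higher at an unadjusted p under 0.05, against 3.81% of all tested rows. Not all of the 8 act only as inhibitors. Nfkbiz encodes a nuclear IkB protein that acts as a co-factor for a subset of targets, Il6 among them. It was at 11.8, 20.4 and 15.5 FPKM in controls and 26.8, 30.6 and 34.4 FPKM in mutants. All mutant libraries were above all controls, with means of 15.9 ± 4.31 and 30.6 ± 3.81 FPKM (SD, n = 3). The log2 fold change of 0.93 ± 0.20 had the lowest p of the 31 genes (unadjusted p = 0.00229, adjusted p = 0.298 in limma, and 0.153 with the replicate block).

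Tnfaip3 encodes A20, the ubiquitin-editing enzyme that shuts off signalling from TNF and Toll-like receptors. It was at 20.7, 20.3 and 16.3 FPKM in controls and 37.4, 25.3 and 34.7 FPKM in mutants, with mutant B closest to the controls. The log2 fold change was 0.73 ± 0.17 (adjusted p = 0.365), and 0.83, 0.31 and 1.04 within pairs A, B and C, which are the libraries that share a letter. Nfkbia, the IkB alpha that NF-kB itself induces, was the most abundant inhibitor. Its levels were 114, 119 and 87.2 FPKM in controls and 154, 116 and 175 FPKM in mutants. Mutant B lay among the controls, so the groups overlapped (0.47 ± 0.19, unadjusted p = 0.0449, adjusted p = 0.617 in limma).

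Nfkbie, IkB epsilon, was at 3.02, 3.17 and 2.19 FPKM in controls and 3.36, 3.9 and 5.26 FPKM in mutants, above the controls in every mutant (0.44 ± 0.19, adjusted p = 0.619). Bcl3, a nuclear IkB protein that works with p50 and p52, was at 16, 12.1 and 17.1 FPKM in controls and 21.7, 13.1 and 35.9 FPKM in mutants. Mutant B lay within the control range and mutant C was highest, and its log2 fold change of 0.52 ± 0.34 (adjusted p = 0.749) was 0.17 without mutant C. Tnip1 and Tnip2 encode partners of A20. Tnip1 was at 10.9, 16.2 and 14.3 FPKM in controls and 16.2, 16.7 and 25.9 FPKM in mutants (0.46 ± 0.21, adjusted p = 0.651). Tnip2 was higher in every mutant, but by little, at 11.8 ± 1.24 and 13.3 ± 0.0899 FPKM (0.17 ± 0.10, adjusted p = 0.735, and 0.085 without control C). Nfkbib, which encodes IkB beta, another cytoplasmic inhibitor, was at 9.56 ± 0.679 and 9.17 ± 1.76 FPKM (-0.07 ± 0.15, adjusted p = 0.931).

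**Figure D2:**
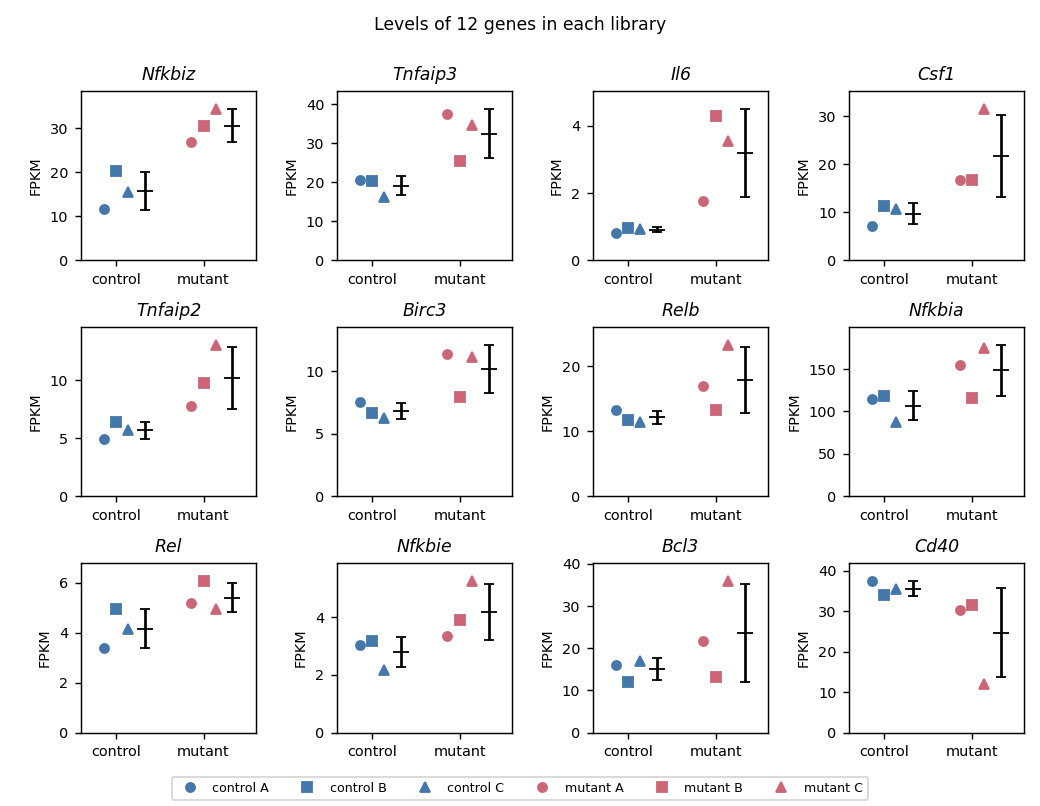
Each panel gives the FPKM of 1 gene in the 3 control (blue) and 3 mutant (red) libraries, with the replicate letter as the marker shape and the mean ± SD of 3 libraries in black. Nfkbiz, Tnfaip3, Il6, Csf1, Tnfaip2, Birc3, Rel and Nfkbie do not overlap between groups, Relb, Nfkbia and Bcl3 do, and Cd40 is at 11.9 FPKM in mutant C.

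Of the TRAF and cIAP adaptors, Birc3 was the one that stood apart. It encodes cIAP2, an NF-kB target that sends the survival signal from the TNF receptor, and was at 7.53, 6.68 and 6.22 FPKM in controls and 11.4, 7.95 and 11.1 FPKM in mutants. Each mutant library was above the controls, with mutant B the nearest (0.50 ± 0.16, unadjusted p = 0.0149, adjusted p = 0.525 in limma). Birc2, which encodes the constitutive cIAP1, was at 10.3 ± 0.944 and 11 ± 0.548 FPKM (0.09 ± 0.10, adjusted p = 0.868). Traf2, the adaptor that recruits both cIAPs, was at 8.87 ± 1.14 and 10 ± 1.61 FPKM (0.15 ± 0.15, adjusted p = 0.839). Traf1, an inducible partner of Traf2, was low throughout, at 0.321, 0.613 and 0.359 FPKM in controls and 0.653, 0.583 and 0.668 FPKM in mutants, and was not tested.

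The receptors as a role were close to level, with a median log2 fold change of 0.07 over 7 tested. Tnfrsf1a, the main TNF receptor, was abundant, at 118, 118 and 123 FPKM in controls and 129, 116 and 154 FPKM in mutants (0.14 ± 0.13, adjusted p = 0.826). Its relative Tnfrsf1b was at 0.849, 2.93 and 1.4 FPKM in controls and 1.16, 1.84 and 0.542 FPKM in mutants (-0.29 ± 0.34, adjusted p = 0.869). Cd40, the receptor of the T cell and platelet ligand Cd40lg, was at 37.4, 33.9 and 35.4 FPKM in controls and 30.4, 31.5 and 11.9 FPKM in mutants. It was the one tested gene of the 31 below the controls in every mutant library, by a small margin in mutants A and B. Its log2 fold change of -0.63 ± 0.34 (adjusted p = 0.703) was -0.19 without mutant C.

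Il6st, the shared signalling subunit gp130 of the IL-6 family, was at 51.9, 66 and 58.3 FPKM in controls and 66, 61 and 104 FPKM in mutants. Only mutant C was clearly above the control range (0.35 ± 0.21, adjusted p = 0.723). Il1r1, the signalling receptor of interleukin 1, was at 6.97 ± 0.422 and 7.45 ± 1.58 FPKM (0.07 ± 0.15, adjusted p = 0.929). The Toll-like receptor Tlr2, which senses bacterial lipoproteins, was at 2.65 ± 0.576 and 3.44 ± 0.692 FPKM (0.28 ± 0.18, adjusted p = 0.749), and Tlr4, which senses endotoxin, at 3.9 ± 0.832 and 3.51 ± 0.887 FPKM (-0.13 ± 0.20, adjusted p = 0.905). Il1rl1, the receptor of interleukin 33, was at 0.0667, 0.0955 and 0.0713 FPKM in controls, was listed at 0 in mutant A, and stood at 0.0328 and 0.0258 FPKM in mutants B and C. These values were too low to test.

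The cytokines held both the highest fold changes of the whole list and genes near the lower limit of the data. Il6 was at 0.827, 0.972 and 0.934 FPKM in controls, which were close together, and 1.76, 4.29 and 3.55 FPKM in mutants. Every mutant library was above every control, and the mean was 3.51 times as high (0.911 ± 0.075 and 3.2 ± 1.3 FPKM). The log2 fold change was 1.08 ± 0.26 (unadjusted p = 0.00412, adjusted p = 0.38 in limma, 0.244 with the replicate block), and 0.59, 1.42 and 1.23 within pairs A, B and C. Csf1, the growth factor of macrophages, was at 7.24, 11.2 and 10.7 FPKM in controls and 16.8, 16.7 and 31.5 FPKM in mutants. Mutants A and B were alike and mutant C was highest, with a mean 2.22 times the control mean. Its log2 fold change was 1.04 ± 0.27 (unadjusted p = 0.00724, adjusted p = 0.434 in limma), and 1.11, 0.53 and 1.47 within the pairs.

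Lif, an IL-6 family cytokine, was below the limit for testing, at 0.147, 0.778 and 0.392 FPKM in controls and 0.478, 1.59 and 0.692 FPKM in mutants. The mutant was higher within each pair, while the groups overlapped. Csf3, the growth factor of neutrophils, was at 0.0529 and 0.0413 FPKM in controls A and B, was listed at 0 in control C and mutant A, and was at 0.118 and 0.179 FPKM in mutants B and C. In units of the control A value, after correction for relative depth, that was 1.01 in control B, 3.04 in mutant B and 5.03 in mutant C, so these levels rest on few fragments. Il15, which sustains natural killer and memory T cells, was at 4.71 ± 0.814 and 4.13 ± 1.14 FPKM (-0.17 ± 0.19, adjusted p = 0.864), and the alarmin Il33 at 0.994 ± 0.285 and 1.05 ± 0.324 FPKM (0.04 ± 0.21, adjusted p = 0.973).

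Il1b and Tnf, the cytokines best known for switching NF-kB on, were not among the genes that were higher in the mutant. Il1b was at 1.25, 3.24 and 0.552 FPKM in controls and 3.65, 0.651 and 0.147 FPKM in mutants (-0.25 ± 0.58, adjusted p = 0.936). Tnf was at 0.553, 0.762 and 0.0953 FPKM in controls and 0.723, 0.253 and 0.172 FPKM in mutants. Both were highest in control B and mutant A and lowest in pair C. The summed leukocyte markers were at 31.3, 62 and 10.9 FPKM in controls and 53.8, 14.7 and 6.93 FPKM in mutants, so control B and mutant A were again the highest and pair C the lowest. Among these markers the leukocyte surface protein Ptprc was at 0.0589 to 1.18 FPKM and S100a8, a protein of neutrophils, was listed at 0 in control C and mutant C. The part of leukocyte transcripts in Il1b and Tnf was not tested.

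**Figure D3:**
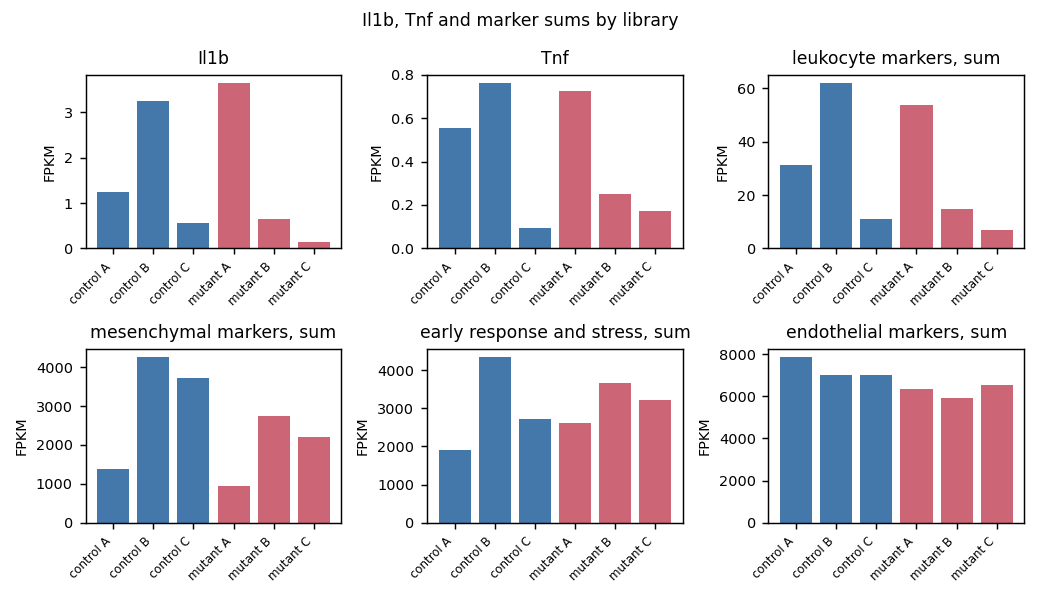
Bars give FPKM by library, blue for control and red for mutant: Il1b, Tnf, and the summed FPKM of the leukocyte, mesenchymal, early response and stress, and endothelial marker lists. Il1b, Tnf and the leukocyte sum are highest in control B and mutant A, and the early response sum is highest in control B at 4341 FPKM.

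Of the 3 response genes, Tnfaip2 was the one whose groups did not overlap. This gene, which TNF induces in endothelium, was at 4.96, 6.43 and 5.68 FPKM in controls and 7.8, 9.78 and 13 FPKM in mutants. Each mutant was above the controls (0.72 ± 0.19, unadjusted p = 0.00656, adjusted p = 0.43 in limma, 0.246 with the block). Irf1, a transcription factor induced by interferon gamma and by NF-kB, was at 92.2, 95 and 75.9 FPKM in controls and 107, 83 and 159 FPKM in mutants. Mutant B was within the control range, and mutants A and C were above it (0.36 ± 0.24, adjusted p = 0.754). Socs3, the feedback brake of STAT3, was at 57.5, 164 and 82.2 FPKM in controls and 76.5, 158 and 211 FPKM in mutants. Control B was as high as mutant B, and the spread within each group exceeded the difference (0.57 ± 0.48, adjusted p = 0.803). The log2 fold change was 0.24 without control A and 0.98 without mutant A. The early response sum was likewise highest in control B (4341 FPKM) and lowest in control A (1903 FPKM), and its part in the Socs3 values was not tested.

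**Figure D4:**
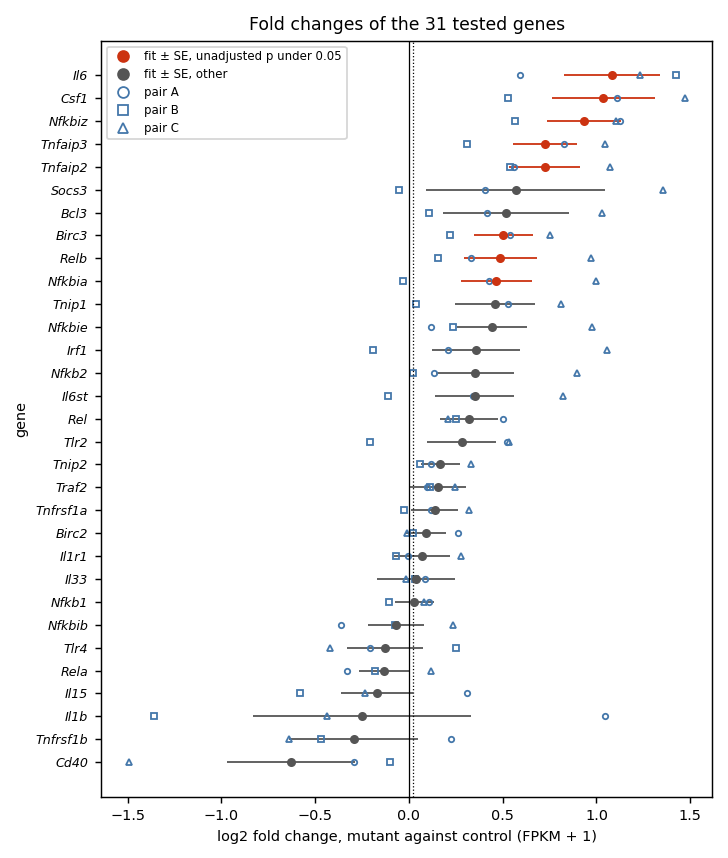
Filled points are limma log2 fold changes on the log2(FPKM + 1) scale with their SE for the 31 tested genes, red where the unadjusted p was under 0.05; open symbols are the differences within pairs A, B and C, and the dotted line is the median of all tested rows. Il6 (1.08) and Csf1 (1.04) are at the top, Cd40 (-0.63) is at the bottom, and the pair B squares lie left of the pair C triangles in most rows.

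The mutant libraries differed in how many of the genes stood above the controls. In mutant C, 23 of the 31 tested genes were above all 3 controls, against 37.6% of all tested rows. In mutant A the number was 19, against 22.1%, and in mutant B it was 14, against 30.5%. The 3 counts share the same controls. Mutant C held the highest value of the 6 libraries in 17 genes (28.1% of all tested rows), mutant A in 6 (10.2%) and mutant B in 3 (18%). The median deviation of the 31 genes from the control mean was 0.18, 0.13 and 0.37 (log2) in mutants A, B and C, beside 0.13 in control B, where it was -0.04 in control A and -0.05 in control C.

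Within the pairs the order was similar for A and C and weaker for B. Mutant A was above control A in 26 of the 31 genes (49% of all tested rows), mutant B above control B in 17 (52.8%, close to the share among the genes) and mutant C above control C in 24 (54.4%). The medians of the differences were 0.31, 0.02 and 0.54 (log2) in pairs A, B and C. The mesenchymal markers had their differences in the same order of size and the opposite direction, with medians of -0.51, -0.07 and -1.10 in pairs A, B and C. Of the 13 tested mesenchymal markers 11 had lower means in the mutant, where 54.6% of all tested rows had higher ones. Of the 11, 2 were at an unadjusted p under 0.05 (4.29% of all tested rows were lower at that p) and 8 with the replicate block (6.88%). The part of these markers in the results for the 31 genes was not tested. All 3 pairs pointed up in 14 of the 31, against 19.6% of all tested rows. Those 14 were Relb, Rel, Nfkb2, Nfkbie, Nfkbiz, Bcl3, Tnfaip3, Tnip1, Tnip2, Birc3, Traf2, Il6, Csf1 and Tnfaip2. Control B was the highest control in 26 of all 36 genes, and the share of all tested rows for which it was highest was not counted. Nfkbiz, Tnfaip3, Il6, Csf1 and Tnfaip2 were the 5 whose unadjusted p remained under 0.05 whichever of the 6 libraries was left out. Their adjusted p in those fits was 0.151 or more. How many of all tested rows remained under 0.05 in this way was not counted.

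**Figure D5:**
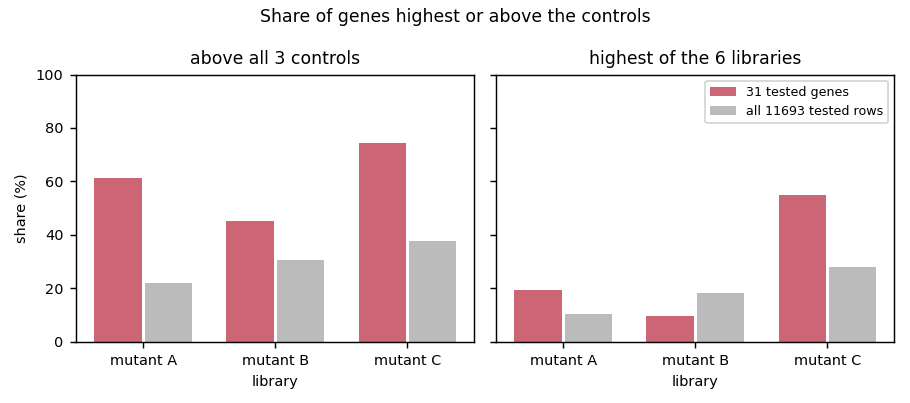
Bars give the share of genes, in percent, that were above all 3 controls (left) or highest of the 6 libraries (right) in each mutant library, in red for the 31 tested genes and in grey for all 11693 tested rows. The red bar for mutant C reaches 74.2% on the left and 54.8% on the right, against 37.6% and 28.1% in grey.

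Genes with and without the promoter match were both higher on balance. All 12 with a match were tested, and each had a higher mean in the mutant, with a median log2 fold change of 0.45. Of the 13 tested genes whose promoters held no match, 9 were higher, with a median of 0.14. Of all tested rows 54.6% were higher, with a median of 0.02, and these rows were not split by the match. Relb, Nfkb1, Nfkbiz, Cd40, Tlr4 and Il15 were tested but had no promoter to search, so they are in neither group. In the first group are Il6, Csf1 and Tnfaip3, whose sites are printed above, and also Il1r1 at 0.07; in the second are Birc3 and Tnfaip2. No test of this difference was made, and a missing match says only that these letters were not in the 300 bases searched.

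The kinases and adaptors that carry the signal to NF-kB were nearly level, in a list of 23 genes that were all tested. Their median log2 fold change was 0.04, with 15 higher (54.6% of all tested rows were) and 8 lower. None passed at an adjusted p under 0.05. Il1rap, the co-receptor that Il1r1 needs to signal, had the lowest p, at 5.82, 6.45 and 7.07 FPKM in controls and 4.31, 4.24 and 2.92 FPKM in mutants. All mutant libraries were below the controls (-0.64 ± 0.16, unadjusted p = 0.00515, adjusted p = 0.411 in limma). Map3k14, the kinase NIK of the non-canonical branch that produces p52 from Nfkb2, was at 2.15, 2.63 and 2.6 FPKM in controls and 5.32, 2.42 and 8.26 FPKM in mutants, with mutant B at the control level (0.76 ± 0.34, adjusted p = 0.639). Myd88, the adaptor of interleukin 1 and Toll-like receptors, was at 16 ± 1.3 and 20.6 ± 3.92 FPKM (0.33 ± 0.15, adjusted p = 0.635). The kinase Irak4 was at 6.7 ± 0.36 and 5.66 ± 0.304 FPKM (-0.21 ± 0.10, adjusted p = 0.668).

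Among 22 further NF-kB response genes, 19 were tested. Of these, 15 were higher in the mutant, against 54.6% of all tested rows, with a median log2 fold change of 0.75. Of the 19, 5 were higher at an unadjusted p under 0.05, against 3.81% of all tested rows, and 10 were with the replicate block, against 5.39%. The difference was again uneven between pairs, with medians of 0.85, 0.12 and 1.10 in pairs A, B and C. Ptgs2, the inducible cyclooxygenase, was at 1.25 ± 0.48 and 2.87 ± 0.604 FPKM (0.79 ± 0.21, adjusted p = 0.444), and the chemokine Cxcl10 at 1.83 ± 1.01 and 4.08 ± 0.677 FPKM (0.90 ± 0.26, adjusted p = 0.482). The endothelial selectin Sele ranged from 3.23 to 41.3 FPKM over the mutants (2.17 ± 0.75, adjusted p = 0.576). The one gene of this list past the threshold went the other way: Cx3cl1, the membrane-bound chemokine fractalkine, fell from 16 ± 1.84 to 7.23 ± 0.497 FPKM (-1.04 ± 0.12, limma adjusted p = 0.04, and 0.0696 with the replicate block).

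A list of ligands, receptors, signal carriers and response genes of the IL-6 family and STAT3, with Il4ra beside them, was close to level. Of 18 listed, 14 were tested, with a median log2 fold change of 0.11, and none passed. Of the 14, 9 were higher, against 54.6% of all tested rows, and 5 were lower. Jak1, the kinase bound to Il6st, was at 59.5, 54.9 and 55.7 FPKM in controls and 67.2, 61.5 and 72.3 FPKM in mutants, above the controls in each mutant by a small margin (0.24 ± 0.10, adjusted p = 0.617). Pim1, a kinase gene that STAT3 induces, was at 16.5 ± 1 and 23 ± 6.83 FPKM (0.42 ± 0.20, adjusted p = 0.655). Il4ra was at 53.6 ± 3.89 and 61.3 ± 4.74 FPKM (0.19 ± 0.10, adjusted p = 0.698), and Cntfr at 1.74 ± 0.911 and 0.787 ± 0.572 FPKM (-0.60 ± 0.34, adjusted p = 0.713).

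A p-value from the submitters' own comparison stood in the authors' deposited table for 34 of the 36 genes. Of these, 3 were under 0.05 in the authors' deposited table, all higher in the mutant. The authors' deposited table lists Il6 at a log2 fold change of 1.72 (p = 0.0334), Nfkbiz at 0.98 (p = 0.0373) and Lif at 1.18 (p = 0.0462). Over all 14338 rows with a p in the authors' deposited table, 1079 were under 0.05, a share close to that among the 34 genes. Of the 8 genes higher at an unadjusted p under 0.05 in limma, only Il6 and Nfkbiz were under 0.05 there. The authors' deposited table gives p = 0.187 for Relb, 0.258 for Nfkbia, 0.0796 for Tnfaip3, 0.0819 for Birc3 and 0.0613 for Csf1. Tnfaip2 was just above 0.05 there, at p = 0.05002 in the authors' deposited table.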

How the data were processed

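RNA of sorted lung endothelial cells was sequenced in 6 libraries. Per the labels' protocols, 100 to 200 ng of total RNA went into an mRNA isolation kit and the libraries were read as 76 nt pairs. Alignment was to mm10. Cufflinks 2.2.1, Cuffdiff, Bowtie2 2.2.3 and TopHat2 2.0.14 are named as tools per the submitters' processing notes. The authors deposited FPKM values per library, with a log2 fold change and p-value of their own, for which no source used here states the method. Whether strand was used in counting is not given either, so overlapping genes are uncertain. The labels do not say that libraries come from separate animals, so p-values reflect only the spread among these samples, which may be technical.

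Levels were compared as log2(FPKM + 1) with limma 3.58.1 (R 4.3.3), its variance prior following mean expression, and p-values were adjusted by Benjamini-Hochberg over the 11693 rows averaging 1 FPKM or more (thresholds 0.05). Fold changes on this scale understate low genes. Count models were not applied, since FPKM is not a count. The fit was tested on simulated data.

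The members, lists and tests were chosen with earlier results of these data known. Genes were named by rule: tested members with an unadjusted p under 0.05, groups that do not overlap, or a log2 fold change of at least 0.5 in size, the 5 subunits, and, from each other list, the 4 genes with the lowest p. Pecam1, Cdh5, Ptprc and S100a8 were named besides, as defining markers. Alternatives were other pseudocounts, filters and scalings, no variance trend, the replicate block, pairs B and C only, and each library left out.

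The letters were checked for pairing: deviations from group means correlated across rows at 0.361, 0.268 and 0.191 for letters A, B and C, all above 0.1, so the letters, which come from the sample titles, were used as a block in an alternative fit.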

Additional observations from a re-analysis of the deposited data

How the results depend on the processing

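None of the 31 tested genes passed at an adjusted p under 0.05 with all libraries or in any alternative run. The median log2 fold change of the genes tested was 0.32 with all libraries and ranged from 0.17 (without mutant C) to 0.41 (without mutant B) over the alternatives. The count of rows called over the whole table was 16 with all libraries, 6 with the replicate block and 5 in pairs B and C only, and ranged from 6 to 10 when 1 library was left out. With the block no adjusted call among the 31 genes changed. Leaving out 1 library gave 5 (without control C) to 10 (without mutant B) genes at an unadjusted p under 0.05, in place of 8; over the whole table the count was 577 without control C and 1110 without mutant B, in place of 947. It gave 10 to 17 (without mutant B) genes with all mutants above all controls, in place of 10, where the share of all tested rows was 9.95% to 17.7%, in place of 7.12%. The sign of Nfkb1 turned: its log2 fold change was -0.013 after rescaling without short RNA rows, -0.012 in pairs B and C only, and between -0.041 (without control A) and 0.10 when 1 library was left out; the cause was not tested. The other 252 of 255 single-gene values over 17 genes kept their direction and their side of the threshold. FPKM without fragment totals gives no counting error for the low genes Csf3, Il1rl1, Tnf, Lif and Traf1.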
